A study of Mus musculus with 8 samples.

Results

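This account follows 6 genes of the exocrine pancreas: the carboxypeptidases *Cpa1* and *Cpb1*, the amylases *Amy1* and *Amy2b*, the ribonuclease *Rnase1*, and the deoxyribonuclease *Dnase1*. They were taken by symbol from the 48709 genes measured in each library, and all 6 were found. RNA-Seq was performed on whole pancreas of 8-week-old male mice, with 4 groups of 2 libraries that the study states are biological replicates. WT mice, or cKO mice with floxed *Pfkfb3* and a Cre transgene under the *Pdx1* promoter, active in pancreatic cells, received saline or palmitoleic acid (POA) with ethanol, and tissue was taken 24 hours later. This alcoholic severe acute pancreatitis is called FAEE-SAP, after the fatty acid ethyl esters formed from POA and ethanol. Mice were fasted before pancreatitis was induced. The methods describe buprenorphine for the POA and ethanol mice and do not mention it for saline, so its effect and that of FAEE-SAP cannot be told apart. The WT mice came from another supplier than the Cre line of the cKO mice, so genotype and source of the animals cannot be told apart either.

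The acinar cell fills its zymogen granules with enzymes for each kind of food molecule. *Cpa1* and *Cpb1* encode zinc carboxypeptidases, secreted as inactive precursors that trypsin cleaves in the gut. The A type removes aromatic and aliphatic residues from the C-terminus of peptides, and the B type removes arginine and lysine. *Amy2b* encodes a pancreatic α-amylase, and *Amy1* encodes the amylase of the salivary gland, which liver and pancreas also express at lower levels. Rnase1 cleaves RNA and Dnase1 cleaves DNA. Acinar enzyme genes are known to be driven by the PTF1 complex, whose Ptf1a and Rbpjl subunits bind an E-box next to a TC-box.

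The genes lie apart in the genome, except for the amylases. By RefSeq on GRCm38.p6, *Cpa1* is at chr6:30639218-30645361 on the plus strand, and *Cpb1* is at chr3:20249479-20275733 on the minus strand. *Amy2b* (chr3:113147656-113156727) and *Amy1* (chr3:113555952-113577750) are the ends of a cluster of amylase genes on the minus strand that spans 430 kb and holds *Amy2a1* to *Amy2a5* between them. *Rnase1* is at chr14:51145002-51146767 on the minus strand, and *Dnase1* is at chr16:4036958-4040024 on the plus strand.

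The sequences just upstream of the start are shown for the 4 genes whose transcripts fell in WT pancreas with FAEE-SAP, since the results turn on them. Each is the 250 bases before the start, 5′ to 3′ on the strand of the gene, from RefSeq on GRCm38.p6. Capitals mark matches, on either strand, to the E-box CANNTG or the TC-box TTTCCC. No match overlapped another.
Cpa1 (chr6:30638968-30639217, plus strand): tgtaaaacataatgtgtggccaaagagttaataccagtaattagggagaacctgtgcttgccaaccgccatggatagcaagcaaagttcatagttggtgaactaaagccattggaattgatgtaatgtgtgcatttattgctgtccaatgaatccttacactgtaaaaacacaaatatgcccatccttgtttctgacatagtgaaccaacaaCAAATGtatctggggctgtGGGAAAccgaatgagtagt
Cpb1 (chr3:20275734-20275983, minus strand): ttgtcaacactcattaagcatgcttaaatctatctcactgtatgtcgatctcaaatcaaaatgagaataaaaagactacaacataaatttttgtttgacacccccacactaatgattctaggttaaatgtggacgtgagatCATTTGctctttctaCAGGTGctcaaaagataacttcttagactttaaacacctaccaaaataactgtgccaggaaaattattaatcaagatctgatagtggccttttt
Amy2b (chr3:113156728-113156977, minus strand): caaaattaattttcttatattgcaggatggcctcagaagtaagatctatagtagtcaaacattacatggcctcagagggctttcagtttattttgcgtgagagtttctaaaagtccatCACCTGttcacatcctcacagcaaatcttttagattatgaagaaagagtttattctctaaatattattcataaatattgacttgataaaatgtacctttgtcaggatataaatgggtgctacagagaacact
Rnase1 (chr14:51146768-51147017, minus strand): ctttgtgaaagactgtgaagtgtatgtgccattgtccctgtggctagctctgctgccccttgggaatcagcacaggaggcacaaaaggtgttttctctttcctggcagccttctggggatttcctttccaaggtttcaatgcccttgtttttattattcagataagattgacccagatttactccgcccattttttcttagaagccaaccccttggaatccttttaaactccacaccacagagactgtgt

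In windows that also take in the first 50 transcribed bases, *Cpa1* had 3 E-box matches and 1 TC-box match, *Cpb1* had 2 E-box matches, and *Amy2b* had 1 of each. The TC-box match of *Amy2b* and 2 of the E-box matches of *Cpa1* lie in the transcribed bases, which are not printed. *Rnase1* had no match to either, and none of the 4 windows matched AAGGTCA, the NR5A2 type of site. Of 32851 windows of the same length, 72.3% held the E-box, 25.25% the TC-box, 18.0% both, and 4.72% AAGGTCA. These matches are letters in a window and not sites shown to be bound.

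Values are RPKM, reads per gene relative to exon length and library size, as deposited or scaled. Scaling divided each library by the median of its ratios to the geometric mean over genes, and its factors were 0.621 to 0.866 for the saline libraries, 1.05 and 0.975 for cKO FAEE-SAP, and 2.02 and 1.94 for WT FAEE-SAP. Library totals worked out from the low values were 22.8 to 37.6 M reads. *Pfkfb3*, the gene deleted in cKO, had a scaled RPKM of 1.70 and 1.69 with saline in WT against 0.880 and 2.10 in cKO. With FAEE-SAP it was 1.85 and 3.21 in WT against 1.74 and 2.82 in cKO, so the genotypes overlapped. A value over all exons does not show the loss of the floxed part, so it is no check of the labels. All 8 defining acinar markers other than the 6 genes were detected at 0.5 RPKM or more in every library. Of 5 salivary gland markers, 4 were listed at 0 in all libraries, and the summed level of all 5 was at most 0.0823 scaled RPKM.

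*Dnase1* was listed at 0 in all 8 libraries. Its exons span 3083 bp, so 3 reads, the most that a count of 0 allows, would be 0.0259 to 0.0426 RPKM, if its reads were counted like those of other genes. Whether they were is not given in the sources used here, and 58.2% of genes are listed at 0 in all libraries. Reads per gene are only approximate, and counting error alone is covered. *Dnase1* could not pass the filter of at least 0.5 RPKM in at least 2 libraries, so the tests below are on 5 of the 6 genes.

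The other 5 genes differed widely in level. Per exonic length, the deposited RPKM in WT saline was 13674 ± 415 for *Cpa1*, 9786 ± 144 for *Cpb1*, 8222 ± 528 for *Rnase1*, 516 ± 125 for *Amy2b*, and 33.0 ± 10.2 for *Amy1* (mean ± SD, n = 2). Libraries of neighbors in this order did not overlap. Among all genes of WT saline these means ranked 14th, 19th, 20th, 43rd, and 231st. The same order held by mean in the other 3 groups. Together the 5 genes took 5.52% to 5.82% of the summed RPKM of the 4 saline libraries, 4.82% and 4.71% in cKO FAEE-SAP, and 3.28% and 3.06% in WT FAEE-SAP. The 29 other digestive enzyme genes listed, which include the *Amy2a* genes, took 80.2% to 82.9%, 75.9% and 76.1%, and 61.8% and 64.6% of these libraries.

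FAEE-SAP in WT pancreas was compared with saline first. Transcripts of *Cpa1*, *Cpb1*, *Amy2b*, and *Rnase1* fell after scaling, by 3.997-fold, 5.58-fold, 3.92-fold, and 9.97-fold, and *Amy1* did not pass the test. Calls needed both a 2-fold change and an adjusted p-value under 0.05, from limma with the Benjamini-Hochberg method applied to every gene tested. The 4 genes called lower compare with 3.86% of 10894 genes. Libraries of the 2 groups did not overlap for any of the 5 genes, which was true in this direction of 29.5% of genes. Less RNA per acinar cell and fewer acinar cells in the tissue cannot be told apart in these bulk samples.

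Of the carboxypeptidases, scaled *Cpa1* was 18380 and 16128 RPKM in WT saline and 4239 and 4415 in WT FAEE-SAP. The WT FAEE-SAP libraries were the lowest of the 8 and differed from each other by only 1.04-fold. The log2 fold change of *Cpa1* was -1.999 (SE 0.14, adjusted p = 0.00292). Scaled *Cpb1* was 13582 and 11182 RPKM in WT saline and 1873 and 2632 in WT FAEE-SAP, again the lowest libraries. Its log2 fold change was -2.48 (SE 0.21, adjusted p = 0.0043).

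Of the amylases, scaled *Amy2b* was 831 and 494 RPKM in WT saline and 201 and 134 in WT FAEE-SAP. Its log2 fold change was -1.97 (SE 0.31, adjusted p = 0.0248). *Amy1* was 55.3 and 29.9 in WT saline and 20.3 and 16.7 in WT FAEE-SAP, where it was lowest of the 4 groups, and the saline libraries lay 1.85-fold apart. Its log2 fold change of -1.14 (SE 0.32, adjusted p = 0.0847) did not pass. *Amy2b* missed the threshold without WT saline library 1 (adjusted p = 0.058) or WT FAEE-SAP library 1 (0.0603) or 2 (0.146), and *Amy1* was below it without WT saline library 2 (log2 fold change -1.61, adjusted p = 0.026). Each of these fits leaves 1 library in a group, which is assumed to vary like those of the other group. All 5 *Amy2a* genes, the abundant pancreatic amylases, were called lower, with log2 fold changes of -1.99 for *Amy2a1* to -1.89 for *Amy2a5*. Of the stretches of 50 bases in the *Amy2b* transcripts, 40.2% also occur in other amylase transcripts, so the low value of *Amy2b* depends on how such reads were assigned. The share was 1.53% for *Amy1*, 100% for *Amy2a2*, *Amy2a3*, and *Amy2a4*, and 0% for *Cpa1*, *Cpb1*, and *Rnase1* against the genes compared.

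Of the nucleases, scaled *Rnase1* was 10782 and 9925 RPKM in WT saline and 1747 and 621 in WT FAEE-SAP. No library of the other 3 groups was below 6430. Its log2 fold change was -3.32 (SE 0.46, adjusted p = 0.017), which put it among the lowest 0.138% of all genes tested. The WT FAEE-SAP libraries lay 2.81-fold apart for *Rnase1*, farther than for 98.6% of genes in that group. They lay 1.505-fold apart for *Amy2b*, and at most 1.46-fold apart for the separate list of other digestive enzymes. *Rnase1* was higher in library 1, and *Cpb1* was higher in library 2. Without WT FAEE-SAP library 1 its log2 fold change was -4.02, and without library 2 it was -2.53. Without WT saline library 1, *Rnase1* missed the threshold (-3.25, adjusted p = 0.0527).

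**Figure D1:**
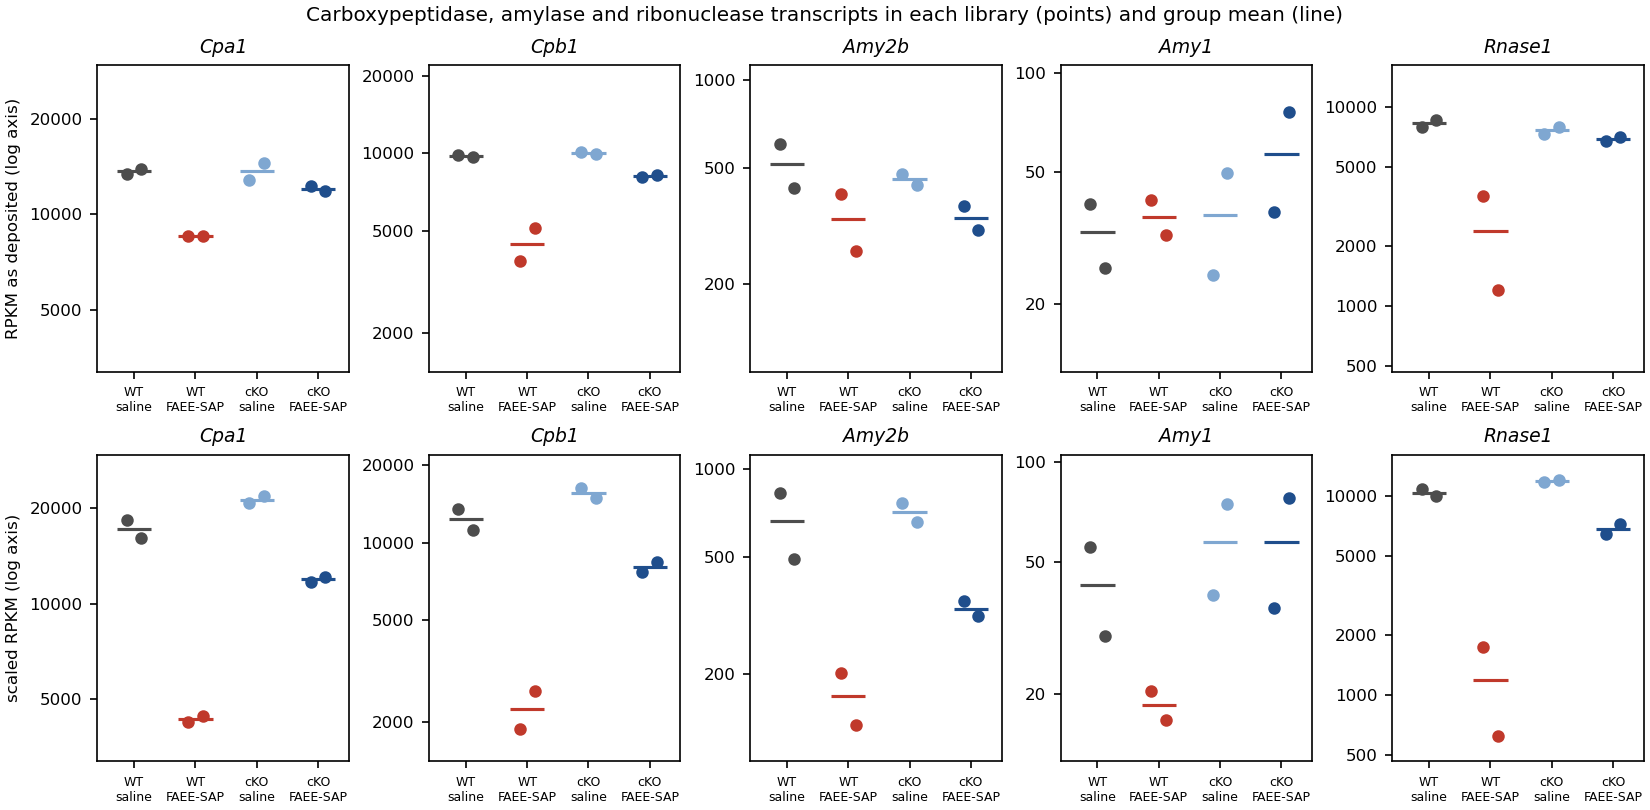
Deposited RPKM (upper row) and scaled RPKM (lower row), both on log axes, of 5 genes in each library (points), with the group mean (line). After scaling, the WT FAEE-SAP libraries are the lowest for all 5 genes, while the deposited *Amy1* values overlap in all groups.

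The size of these decreases depended on the scaling. As deposited, *Cpa1* was 13380 and 13967 RPKM in WT saline and 8579 and 8544 in WT FAEE-SAP, with a log2 fold change of -0.68 (SE 0.12). Only *Cpb1* and *Rnase1* were called lower as deposited, with log2 fold changes of -1.16 (SE 0.17) and -1.99 (SE 0.44), against 0.789% of genes. *Amy1* changed sign to 0.18 (SE 0.27). As deposited, the median log2 fold change over all genes was 1.24, and 7184 genes were called higher and 86 lower. After scaling the median was 0.02, and 335 genes were called higher and 420 lower. With quantile normalization, *Cpa1*, *Cpb1*, and *Rnase1* were not called, with log2 fold changes of -0.34, -0.65, and -1.82, and limma adjusted p-values of 0.00738, 0.107, and 0.124. *Cpa1* missed the 2-fold change only. *Amy2b* was then the only one called (-1.61, adjusted p = 0.0304), where 352 of 10894 genes were called lower.

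To compare the genes with the rest of the enzymes, the libraries were also scaled on the 29 other enzyme genes alone. Relative to those enzymes, *Cpa1* and *Amy2b* had log2 fold changes of -0.04 (95% CI, -0.29 to 0.22) and -0.01 (95% CI, -0.67 to 0.66) with FAEE-SAP in WT. *Rnase1* was lower on this scale, with a log2 fold change of -1.35 (SE 0.46, limma adjusted p = 0.023), and was the only one of the 5 called, against 0.33% of genes called lower. In this fit 9853 of 10894 genes were called, 9817 of them higher. Adjustment therefore changed p-values little, from an unadjusted 0.0209 for *Rnase1* in limma. Of the 28 other enzyme genes tested, 1 was also called lower on this scale. It was *Clps*, which encodes the lipase cofactor colipase and is named after its values were seen, and it had a larger change than *Rnase1* (-1.89, SE 0.15). *Cpb1* was also lower, by -0.52 (SE 0.14, adjusted p = 0.0099), and *Amy1* was higher, by 0.82 (SE 0.28, adjusted p = 0.0257), both under 2-fold. On this scale the median of all genes moved to 1.83.

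**Figure D2:**
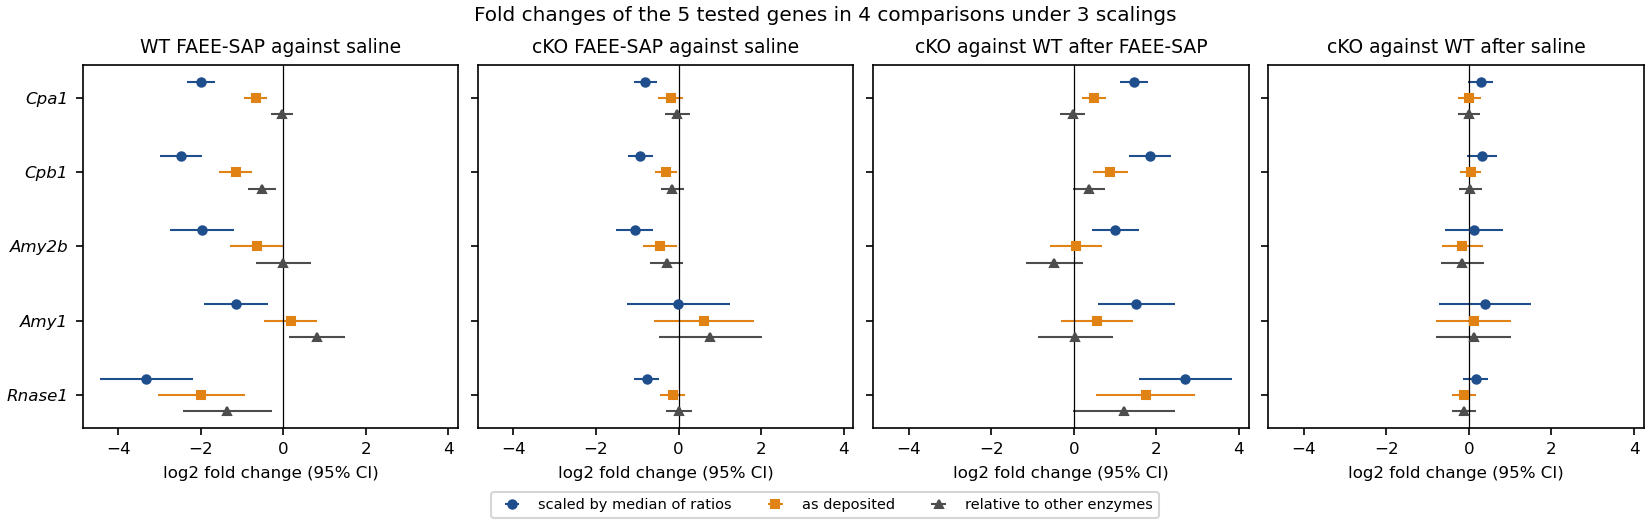
Log2 fold changes with 95% confidence intervals of 5 genes in 4 comparisons, with libraries scaled by median of ratios, as deposited, or scaled on the other digestive enzymes. In WT FAEE-SAP against saline, *Cpa1* moves from -1.999 to -0.68 and -0.04 across these scalings, and *Rnase1* stays below 0 in all of them.

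Ratios within a library do not depend on its scaling. *Rnase1* was 58.7% and 61.5% of *Cpa1* in WT saline, 56.5% and 54.4% in cKO saline, and 54.9% and 59.4% in cKO FAEE-SAP. In WT FAEE-SAP it was 41.2% and 14.1%, below the 6 other libraries. This depended on the partner and on the library. *Rnase1* was 93.3% of *Cpb1* in WT FAEE-SAP library 1, the highest of all 8, and 23.6% in library 2, the lowest, with 71.7% to 88.8% elsewhere. Against *Clps*, *Rnase1* was 117% and 47.3% in WT FAEE-SAP and 50.9% to 63.2% in the other libraries, so these libraries lay on both sides of the rest. *Cpb1* was 68.2% to 78.8% of *Cpa1* in the saline libraries, 65.7% and 69.2% in cKO FAEE-SAP, and 44.2% and 59.6% in WT FAEE-SAP, again the lowest. *Amy2a1*, by contrast, was 3.88 to 4.77 times *Cpa1* in the WT FAEE-SAP libraries and 4.10 to 4.76 times in the saline libraries, so this ratio differed by less than the spread of these libraries. Of the 50-base stretches of *Amy2a1*, 94.9% occur in other amylase transcripts, so its level too depends on how such reads were assigned. *Amy1* was 0.124% and 0.0793% of *Amy2a1* in WT FAEE-SAP and 0.0673% and 0.0451% in WT saline. In cKO the ratio was 0.0690% and 0.139% with FAEE-SAP and 0.0401% and 0.0782% with saline, and these groups overlapped. The ratios are given as a description, and an exact permutation test of 2 libraries per group could not go below p = 0.33.

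**Figure D3:**
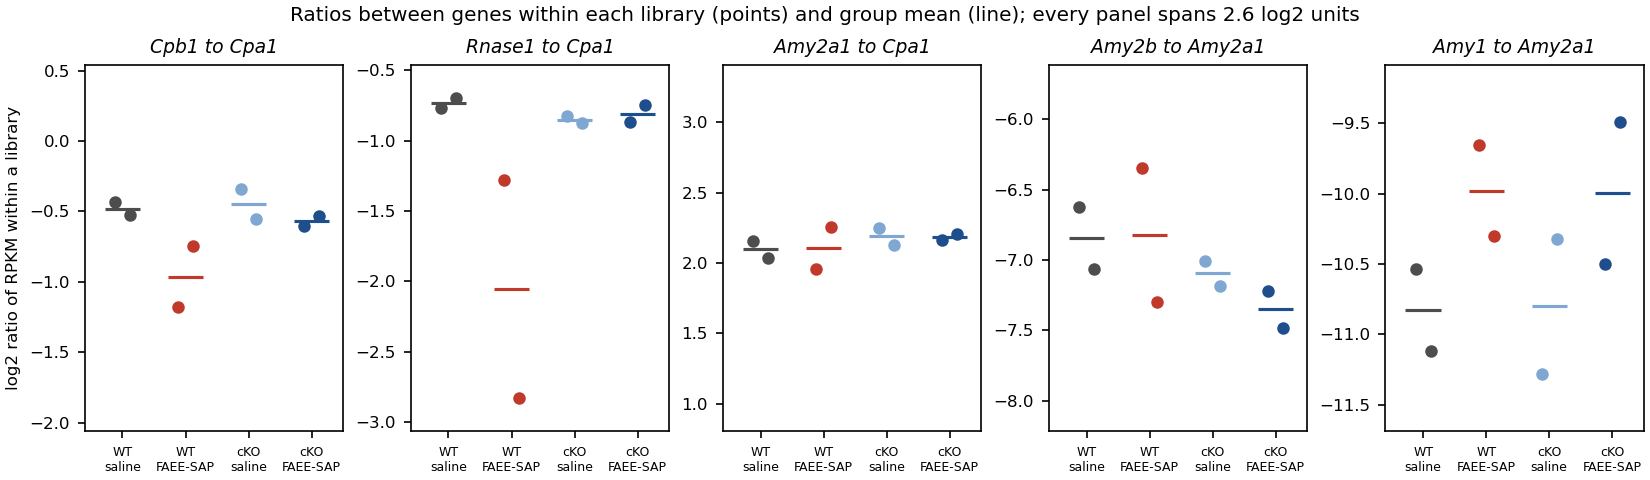
Log2 ratios of RPKM between genes within each library (points) with the group mean (line), in panels that share 1 span of the axis. *Rnase1* and *Cpb1* relative to *Cpa1* are lowest in the WT FAEE-SAP libraries, and *Amy2a1* relative to *Cpa1* is alike in all 4 groups.

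In cKO pancreas, FAEE-SAP was compared with saline in the same way. None of the 5 genes was called, against 0.0531% of 9423 genes in either direction, although 4 of the 5 had an unadjusted p-value under 0.05 in limma, as had 9.42% of all genes. Scaled *Cpa1* was 20742 and 21940 RPKM in cKO saline and 11721 and 12158 in cKO FAEE-SAP. Its log2 fold change was -0.81 (95% CI, -1.09 to -0.53; adjusted p = 0.201). *Cpb1* was 16343 and 14974 with saline and 7705 and 8415 with FAEE-SAP, with a log2 fold change of -0.93 (95% CI, -1.24 to -0.62; adjusted p = 0.181). *Cpa1* and *Cpb1* thus had lower libraries with FAEE-SAP, without overlap, that did not pass the adjusted test.

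*Amy2b* was 767 and 658 in cKO saline and 353 and 314 in cKO FAEE-SAP, with a log2 fold change of -1.06 (95% CI, -1.51 to -0.61; adjusted p = 0.255). *Rnase1* was 11723 and 11936 with saline and 6430 and 7227 with FAEE-SAP, with a log2 fold change of -0.77 (95% CI, -1.07 to -0.46; adjusted p = 0.238). *Amy1* was 39.6 and 74.9 with saline and 36.3 and 78.0 with FAEE-SAP, with a log2 fold change of 0.00 after rounding and a 95% CI of -1.24 to 1.24. Libraries of the groups did not overlap, with FAEE-SAP lower, for the 4 genes other than *Amy1*, as for 21.4% of all genes. As deposited, their log2 fold changes were -0.18 for *Cpa1*, -0.31 for *Cpb1*, -0.44 for *Amy2b*, and -0.14 for *Rnase1*, while the median of all genes was 0.57. Relative to the other enzymes, *Rnase1* did not stand lower in cKO, with 0.01 (95% CI, -0.30 to 0.33).

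The genotypes were then compared after FAEE-SAP. *Cpa1* and *Cpb1* were called higher in cKO than in WT, 2.74-fold and 3.60-fold, against 0.863% of 11008 genes. The log2 fold changes were 1.45 (SE 0.14, adjusted p = 0.018) for *Cpa1* and 1.85 (SE 0.21, adjusted p = 0.0244) for *Cpb1* in limma. *Rnase1* had the largest difference, 2.70 (SE 0.46), but its adjusted p was 0.0704. With all 8 libraries in 1 model it was called (2.71, adjusted p = 0.0254), where 1.66% of genes were called higher. *Amy1* and *Amy2b* had 1.52 (SE 0.38, adjusted p = 0.13) and 1.009 (SE 0.23, adjusted p = 0.113). All 5 genes were higher in each cKO library than in each WT library, as were 26.1% of genes. With the replicate number as a block, *Amy2b* and *Rnase1* were called as well, with adjusted p-values of 0.0451 and 0.0233, in a fit that called 3% of genes higher. The calls of *Cpa1* and *Cpb1* were lost without WT FAEE-SAP library 1 (adjusted p = 0.0772 for each), WT FAEE-SAP library 2 (0.108), or cKO FAEE-SAP library 2 (0.0604).

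This comparison also moved with the scaling. With quantile normalization, *Cpa1* and *Cpb1* had 0.34 (adjusted p = 0.0392) and 0.35 (adjusted p = 0.246) on the log2 scale and were not called. Without the intensity trend in limma neither was called, with adjusted p-values of 0.0678 and 0.0621. As deposited, *Rnase1* alone was called higher in cKO, with 1.74 (SE 0.48, adjusted p = 0.0278), against 0.663% of genes, and *Amy2b* had 0.05 (SE 0.25). The median of all genes was then -0.91, and 73 genes were called higher and 4354 lower, where scaling gave 95 and 45. Relative to the other enzymes, the median of all genes was -1.39, and 35 of 11008 genes were called higher and 8369 lower. On that scale *Cpa1* had -0.03 (95% CI, -0.34 to 0.28), *Amy1* had 0.04 (95% CI, -0.87 to 0.95), and none of the 5 was called. *Rnase1* had 1.22 (95% CI, -0.02 to 2.45; adjusted p = 0.0607) and *Cpb1* had 0.37 (95% CI, -0.02 to 0.76; adjusted p = 0.0707). With scaling by median of ratios, each of the 5 genes had an unadjusted p-value under 0.05, as had 19.5% of all genes.

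After saline, none of the 5 genes differed between the genotypes by the test, as none of 8715 genes (0%) was called in limma. Over all genes 187 (2.15%) had an unadjusted p-value under 0.05, and 0 of the 5 had an unadjusted p-value under 0.05. The log2 fold changes of cKO against WT were 0.28 (95% CI, -0.03 to 0.59) for *Cpa1*, 0.32 (95% CI, -0.04 to 0.68) for *Cpb1*, and 0.17 (95% CI, -0.13 to 0.46) for *Rnase1*. The intervals for *Amy2b* (-0.59 to 0.83) and *Amy1* (-0.71 to 1.51) were wider. The cKO libraries of *Cpa1*, *Cpb1*, and *Rnase1* were above both WT libraries after scaling, as were 13.7% of genes, and as deposited the log2 fold changes of these genes were 0.00, 0.04, and -0.11.

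The difference between the genotypes in the response to FAEE-SAP was tested directly, as an interaction over all 8 libraries. None of the 5 genes was called, against 0.0719% of 11133 genes, and 3 had an unadjusted p-value under 0.05 in limma, as had 12.6% of all genes. The difference of the log2 fold changes, cKO minus WT, was 1.16 (95% CI, 0.74 to 1.57; adjusted p = 0.0958) for *Cpa1* and 1.51 (95% CI, 0.88 to 2.15; adjusted p = 0.144) for *Cpb1*. It was 2.52 (95% CI, 1.15 to 3.88; adjusted p = 0.202) for *Rnase1*, and without WT FAEE-SAP library 1 it was 3.26 with an adjusted p of 0.0176, which rests on 1 library in that group, assumed to vary like the others. For *Amy2b* and *Amy1* it was 0.87 (95% CI, -0.08 to 1.82) and 1.10 (95% CI, -0.44 to 2.65). With scaling by median of ratios, the difference was thus above 0 for each gene and not called for any of them. As deposited the values were smaller, with 0.49 for *Cpa1*, 0.85 for *Cpb1*, 0.44 for *Amy1*, 0.20 for *Amy2b*, and 1.85 for *Rnase1*. Relative to the other enzymes it was below 0 for *Cpa1* (-0.019), *Amy1* (-0.067), and *Amy2b* (-0.30), and above 0 for *Cpb1* (0.34) and *Rnase1* (1.34). These comparisons share libraries, so their values are not independent of each other.

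Genes related to the 6 were examined from lists of each enzyme family. One list of 16 genes held other ribonucleases and *Rnh1*, which encodes their inhibitor and is no ribonuclease. Of these, 8 were tested in WT, *Rnh1* among them, 1 was called higher (against 3.08% of all genes) and none lower, and the median log2 fold change was -0.03. As deposited, 7 of the 8 were called higher, where 65.9% of all genes were called higher, so counts as deposited say little about this or the next lists. The gene called was *Ang*, which encodes angiogenin, a secreted ribonuclease of the same family as Rnase1. Scaled *Ang* was 19.8 and 34.8 RPKM in WT saline and 120 and 75.3 in WT FAEE-SAP, which gave 1.85 (SE 0.34, adjusted p = 0.0352) on the log2 scale. In cKO it was 24.9 and 26.6 with saline and 44.3 and 40.2 with FAEE-SAP (log2 fold change 0.74, SE 0.17, adjusted p = 0.401). The interaction for *Ang* was -1.14 (SE 0.44, adjusted p = 0.362).

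*Rnase4*, named here after its values were seen, shares the start of its locus with *Ang* on the plus strand of chromosome 14, 38.8 kb from *Rnase1*. Reads of these overlapping genes may not be separable. Scaled *Rnase4* was 42.6 and 67.5 RPKM in WT saline and 154 and 87.4 in WT FAEE-SAP, a difference of 1.11 on the log2 scale (SE 0.34, adjusted p = 0.103). *Rnase1* was thus called lower and *Ang* higher in the same libraries. Relative to *Rnase1*, *Ang* was 0.183% to 0.350% in the saline libraries, 0.688% and 0.557% in cKO FAEE-SAP, and 6.85% and 12.1% in WT FAEE-SAP.

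**Figure D4:**
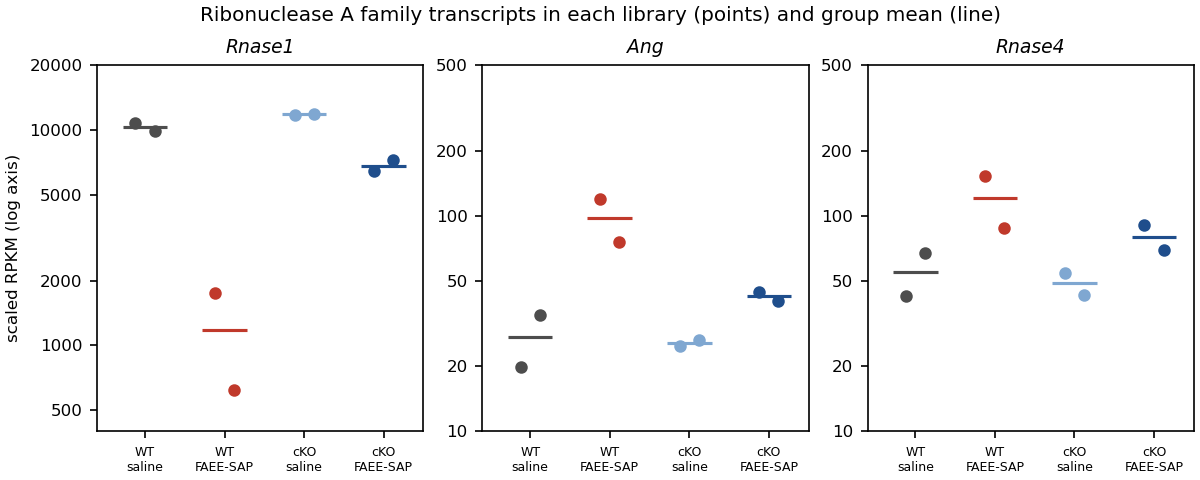
Scaled RPKM, on log axes, of *Rnase1*, *Ang*, and *Rnase4* in each library (points) with the group mean (line). *Rnase1* is lowest and *Ang* highest in the WT FAEE-SAP libraries.

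Of 18 other metallocarboxypeptidase genes, 8 were tested in WT, of which 3 were called lower and none higher around a median of -0.43 on the log2 scale, where 3.86% of all genes were called lower. As deposited, 3 of the 8 were called higher and none lower, below the 65.9% of all genes called higher. The 3 called lower after scaling were *Cpn1* (-2.14, SE 0.22, adjusted p = 0.00828), the catalytic subunit of carboxypeptidase N, *Agtpbp1* (-1.54, SE 0.24, adjusted p = 0.0242), which removes glutamates from tubulin, and *Cpq* (-1.22, SE 0.21, adjusted p = 0.0313). All were low. Scaled *Cpn1* was 3.36 and 4.11 RPKM in WT saline and 0.736 and 0.839 in WT FAEE-SAP, against 3.84 and 2.85 in cKO FAEE-SAP. *Cpn1* was the only gene of this list called higher in cKO than in WT after FAEE-SAP (1.97, SE 0.25, adjusted p = 0.0336), against 0.863% of all genes. That call depended on both WT FAEE-SAP libraries. As deposited, *Cpq* was 1.67 and 1.98 in WT saline and 1.81 and 1.92 in WT FAEE-SAP, so its decrease was seen only after scaling. Of 10 other DNase genes, 7 were tested in WT and none was called after scaling (median 0.06 on the log2 scale), while 4 were called higher as deposited, against 65.9% of all genes.

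The 29 other digestive enzymes were set beside the 5 genes. In WT, all 28 that were tested were called lower, against 3.86% of all genes, with a median log2 fold change of -1.96, where the median of the 5 genes was -1.999 and that of all genes was 0.02. In cKO none of the 28 was called, where 0.0531% of all genes were called in either direction. All 28 were below 0 there, with a median of -0.84. After FAEE-SAP, 23 of the 28 were called higher in cKO than in WT, with a median of 1.43, where 0.863% of all genes were called higher. Calls in this comparison depended on both WT FAEE-SAP libraries. As deposited, 6 of the 28 were called lower in WT (0.789% of all genes) and 26 were below 0. After FAEE-SAP, 3 were then called higher in cKO than in WT (0.663% of all genes), with a median of 0.47.

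Of 14 acinar transcription factors, 13 were tested in WT. After scaling, 4 were called lower (3.86% of all genes) and 1 higher (3.08%). As deposited, 1 was called lower (0.789% of all genes) and 4 higher (65.9%). *Bhlha15*, which encodes the secretory cell factor MIST1, was 28.3 and 29.9 scaled RPKM in WT saline and 3.81 and 1.71 in WT FAEE-SAP (log2 fold change -3.47, SE 0.37, adjusted p = 0.00853). Like *Rnase1*, it was lower in the second of these libraries. *Rbpjl* (-2.13, SE 0.39, adjusted p = 0.0355) and *Ptf1a* (-1.81, SE 0.26, adjusted p = 0.0197), of the PTF1 complex, were lower after scaling. As deposited, *Ptf1a* was 7.64 and 12.4 in WT saline and 8.41 and 5.57 in WT FAEE-SAP, and *Rbpjl* was 11.5 and 19.6 against 12.7 and 5.62, so both overlapped. *Xbp1*, which encodes a factor of the unfolded protein response, was called higher (1.39, SE 0.17, adjusted p = 0.0126). In cKO none of the 13 was called, where 0.0531% of all genes were called. *Bhlha15* was 39.6 and 18.2 there with saline and 20.8 and 19.0 with FAEE-SAP. *Ptf1a* in cKO was 23.1 and 15.1 with saline and 7.46 and 5.58 with FAEE-SAP, without overlap (-1.49, SE 0.30, adjusted p = 0.333). *Bhlha15* was the only factor called higher in cKO than in WT after FAEE-SAP (2.91, SE 0.38, adjusted p = 0.035), against 0.863% of all genes. This call too depended on both WT FAEE-SAP libraries.

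Profiles over the 8 libraries were compared by the root mean square of log2 differences after centering each gene, among 11128 other genes. The nearest to *Cpa1* were *Pla2g1b*, a pancreatic phospholipase, at 0.049, *Cbs* at 0.090, and *Amy2a1* at 0.097, where the median gene was at 0.94. The nearest to *Cpb1* were *Cela2a*, a pancreatic elastase, at 0.12, *Egf* at 0.13, and *Fam46c* at 0.15. *Amy2b* was nearest to *Pbld2* at 0.19, *Vtn* at 0.24, and *Macrod1* at 0.24. *Amy1* was nearest to *Spock2* at 0.21, *Ppp4r4* at 0.21, and *Gata4* at 0.22. *Rnase1* was nearest to *Aass* at 0.27, *Ero1lb* at 0.30, and *Zg16*, a zymogen granule protein, at 0.31. The median gene was at 1.49 from *Rnase1*, and *Cpa1* was at 0.67, its 77th nearest gene.

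Markers of other cells were examined in the same libraries. Neutrophil markers, 7 in the list, summed to 1.28 to 3.79 scaled RPKM with saline. With FAEE-SAP the sums were 19.9 and 12.9 in cKO and 59.8 and 55.8 in WT. In WT FAEE-SAP 6 of the 7 were at 0.5 RPKM or more in each library, and none was at 0. The 7 macrophage markers summed to 71.9 to 89.0 with saline, 122 and 106 with FAEE-SAP in cKO, and 94.8 and 68.3 with FAEE-SAP in WT, with all 7 detected in each library. Islet markers, 6 in the list and all detected in each library, summed to 271 to 358 with saline. With FAEE-SAP the sums were 170 and 228 in WT and 411 and 427 in cKO. After scaling, 2 of the 6 were called lower in WT (3.86% of all genes), and 3 were called higher in cKO than in WT after FAEE-SAP (0.863% of all genes). As deposited these counts turned to 1 higher in WT, where 65.9% of all genes were called higher. They turned to 1 lower in cKO than in WT, where 4354 of 11008 genes were called lower. Adipocyte markers, 5 in the list, summed to 23.0 and 36.4 with saline in WT and 53.2 and 70.4 with FAEE-SAP, and in cKO to 45.1 and 23.8 with saline and 58.9 and 18.1 with FAEE-SAP. In WT, 1 of the 4 tested was called higher after scaling, against 3.08% of all genes, and 3 as deposited, against 65.9%. After FAEE-SAP none of the 4 was called between genotypes after scaling. All 4 were lower in cKO than in WT, with a median of -0.97 on the log2 scale.

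After scaling, all 6 neutrophil markers tested were called higher in WT, against 3.08% of all genes, and none of the 7 macrophage markers was called. As deposited, the 6 neutrophil and the 7 macrophage markers were all called higher, against 65.9% of all genes. None of the markers of lymphocytes, endothelium, fibroblasts, or duct cells was called in WT after scaling. The part of these cells in the levels of the digestive enzymes was not tested.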

How the data were processed

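RNA-Seq libraries of pancreas, 2 biological replicates in each of 4 groups, were made with TRIzol and a directional NEBNext Ultra II kit, sequenced in pairs on a NovaSeq, filtered with fastp, and mapped to Ensembl GRCm38.p6 in CLC Genomics Workbench by the authors, who deposited RPKM per gene. How RPKM was computed is not given in the sources used here. Totals were worked out from low values, of which 84.5% to 85.8% gave whole reads within 0.1, and matched genes summed to 100.3% to 105.7% of them, so reads are approximate, and whether reads or pairs were counted is not settled. RPKM keeps ratios between genes within a library, but a library dominated by few genes shifts all other values, which is why libraries were also scaled.

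Groups were taken from the labels. Genes at 0.5 RPKM or more in at least 2 libraries of a comparison were scaled by median of ratios within it, transformed as log2(RPKM + 0.1), and tested with limma 3.58.1 (R 4.3.3) with an intensity trend, 2-sided, with Benjamini-Hochberg adjustment. Levels are scaled over all 8 libraries. A fold change is on the log2(value + 0.1) scale. The procedure was tested on simulated data. Same-numbered replicates correlated in their deviations by -0.17 between WT groups, 0.40 between cKO groups, 0.30 with FAEE-SAP, and -0.32 with saline. The signs differed, and the labels do not say that a number marks shared handling. The main fits used no pairing. Alternatives were other scalings, filters, pseudocounts, thresholds, models, and leaving out each library. By symbol, 46319 genes (95.1%) matched GENCODE vM21. Figures were drawn with matplotlib 3.10.9.

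The genes and lists were chosen with earlier results of these data known. Named are the 6 genes, *Pfkfb3*, and the *Amy2a* genes, up to 3 called genes per direction of each family list and of the transcription factors, and the 3 nearest profiles of each gene. One related gene under this rule is not reported here.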

Additional observations from a re-analysis of the deposited data

How the results depend on the processing

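A fit without a library leaves 1 sample in its group, assumed to vary like the others. With 2 libraries per group, no exact permutation test could pass, and limma p-values borrow variance from other genes. Of 450 recomputed fold changes of single genes, 381 kept direction and side of the threshold, 31 were no longer called, 15 became called, and 23 changed direction. Of 90 recomputed counts of the 5 genes called, 72 were within 1.5 times the original, mostly 0 against 0. Most others were between genotypes after FAEE-SAP.

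Of the 5 genes, 4 were called in WT FAEE-SAP against saline. The count was 2 as deposited, 1 with quantile normalization, 1 relative to the other enzymes, 0 with no filter, and 2 to 5 with each library left out. In cKO FAEE-SAP against saline it was 0, and 1 at an unadjusted p-value (280 of 9423 genes). In cKO against WT after FAEE-SAP it was 2, and 1 as deposited, 0 with quantile normalization, 0 relative to the other enzymes, 0 with no filter, 0 without the trend, 3 with all 8 libraries in 1 model, 5 at an unadjusted p-value, and 0 to 3 with each library left out. The interaction gave 0, and 3 at an unadjusted p-value and 0 to 1 with each library left out. The unadjusted threshold, looser by construction, called 924 of 11008 genes between genotypes after FAEE-SAP and 782 of 11133 for the interaction. The cause of the other changes was not tested. With no filter (48709 genes), 1 of the 5 in WT and 0 between genotypes after FAEE-SAP were under 0.05 before adjustment.

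The replicate number as a block gave 4 genes called in WT, 0 in cKO, 4 in cKO against WT after FAEE-SAP, 0 after saline, and 0 for the interaction. This is no paired analysis. Exchanging the numbers of the WT saline libraries, chosen after seeing the data, gave 4 in WT and 0 after saline. After saline, 469 of 8715 genes then had an unadjusted p-value under 0.05 in limma, against 187 without a block.

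Direction changed for *Amy1* in WT as deposited (0.18) and relative to the other enzymes (0.82). In cKO it changed for *Amy1* as deposited (0.62), with quantile normalization (0.15), and relative to the other enzymes (0.77), for *Cpa1* with quantile normalization (0.076), and for *Rnase1* relative to the other enzymes (0.014). With each library left out, *Amy1* in cKO ranged from -0.48 to 0.55. In cKO against WT after FAEE-SAP, *Cpa1* (-0.027) and *Amy2b* (-0.47) changed sign relative to the other enzymes. After saline, *Amy2b* was -0.16 as deposited, -0.14 with quantile normalization, and -0.16 relative to the other enzymes, *Rnase1* was -0.11, -0.038, and -0.11, and with each library left out *Amy1* ranged from -0.068 to 0.85 and *Amy2b* from -0.23 to 0.46. In the interaction relative to the other enzymes, *Cpa1* was -0.019, *Amy1* -0.067, and *Amy2b* -0.30.

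Over all genes, no filter left 0 called in WT, in cKO, and between genotypes after FAEE-SAP. In WT 755 were called, and 7270 as deposited, 9853 relative to the other enzymes, 442 with the block, 1349 at an unadjusted p-value, and 97 to 491 with each library left out. In cKO 5 were called, and 15 as deposited, 1692 relative to the other enzymes, 15 with all 8 libraries in 1 model, 52 with the block, 280 at an unadjusted p-value, and 0 to 6 with each library left out, with 0 without cKO FAEE-SAP library 2. Between genotypes after FAEE-SAP 140 were called, and 4427 as deposited, 8404 relative to the other enzymes, 78 with quantile normalization, 57 without the trend, 295 with all 8 libraries, 568 with the block, 924 at an unadjusted p-value, and 0 to 139 with each library left out, with 0 without either WT FAEE-SAP library. The interaction called 8, and 791 as deposited, 5381 relative to the other enzymes, 25 with quantile normalization, 24 with a pseudocount of 1, 1 with a pseudocount of 0.01, 15 with an RPKM minimum of 2, 3 without the trend, 1 with no filter, 782 at an unadjusted p-value, 0 with the block, and 0 to 4 with each library left out.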
